A study of Mus musculus with 21 samples.

Results

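The Fc receptor genes described here are Fcgr1, Fcgr2b, Fcgr3, Fcgr4, Fcer1g and Fcgrt. They were chosen by gene name, as 6 of the 18869 named genes of the transcript table, and all 6 passed the filter on low values. The table holds 21 RNA sequencing libraries, made from peritoneal macrophages (CD11b+) of C57BL/6 mice. Wild-type cells gave 9 libraries, and cells labelled Lum-/- (lumican knockout) or Bgn-/- (biglycan knockout, given in the protocol as Bgn-/0 or -/-) gave 6 each. Cells came from unelicited peritoneal lavage (mice n = 10, with no statement on pooling), were selected for CD11b, kept overnight in wells and then given serum-free medium. LPS, a ligand of the receptor TLR4, was given at 100 ng/mL for 6 h, and CpG DNA, which TLR9 binds, at 1 µM for 6 h. Recombinant lumican or biglycan, both small proteoglycans of the extracellular matrix, was given at 10 µg/mL for 1 h before the stimulus, and no dose or time is stated for protein alone. Wild-type cells were left without protein or given either one, whereas the Lum-/- label was paired with lumican only and the Bgn-/- label with biglycan only. Every such setting was run unstimulated, with LPS and with CpG. The ages of the mice are not given in the sources used here.

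There is 1 library per genotype, protein and stimulus, so genotype and cell preparation cannot be told apart, and p-values measure the spread between these libraries only. Among the unstimulated libraries, the Lum-/- one without protein and the Bgn-/- one with biglycan held the fewest transcripts above 0, 40241 and 40231, against 50990 to 59621 in the other 19. They were also the most alike of all 210 pairs of libraries despite their different labels. Their median absolute log2 difference was 0.054, against 0.0621 to 0.849 (median 0.267) in the other 209 pairs. The main results that rest on these 2 libraries are given with and without them. Some fits also left out the untreated wild-type library. Its 10 mast cell markers summed to 5.82 TPM, against 107 to 220 in the other 8 wild-type libraries. Depth is not known from TPM. Lum was at 0.823 to 14.1 TPM in the libraries labelled Lum-/- and at 0 to 1.40 in wild type, and Bgn was at 0 to 3.49 TPM in those labelled Bgn-/- and at 0.327 to 1.52 in wild type, so neither label is borne out by its transcript. The macrophage markers were abundant (8 of 8 above 0), at a summed 30382 to 44216 TPM without stimulus, 13853 to 17793 with LPS and 33428 to 38220 with CpG. These 8 include Fcgr1 itself (6.07 to 188 TPM), and most of the sum is Lyz2 (9666 to 38548 TPM). B cell markers were also present (9 of 9 above 0, 398 to 919 TPM summed).

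Fc receptors bind the constant part of antibodies and link antibody-coated particles to phagocytosis, oxidant release and cytokine production. Among the receptors for IgG, Fcgr1 (high affinity), Fcgr3 and Fcgr4 encode activating receptors that signal through the common gamma chain encoded by Fcer1g, while Fcgr2b encodes the inhibitory receptor, which carries its own inhibitory motif and recruits the phosphatase SHIP1. Fcgrt encodes the heavy chain of the neonatal Fc receptor, which pairs with beta-2-microglobulin and returns IgG from endosomes to the cell surface. In macrophages the balance between activating and inhibitory receptors is known to set the threshold for responses to immune complexes.

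Fcgr2b, Fcgr4, Fcgr3 and Fcer1g lie within 275.7 kb on chromosome 1 (GRCm38, chr1:170958617-171234365). Fcgr1 is on chromosome 3 (chr3:96282909-96293969, minus strand) and Fcgrt on chromosome 7 (chr7:45092990-45103851, minus strand). Fcgr2b and Fcgr3 are close in sequence, which bears on how reads are shared between them. Of the stretches of 31 bases in their most abundant transcripts, 233 were identical, 16.27% of those of Fcgr2b and 17.69% of those of Fcgr3, and no other pair of the 6 genes shared any. Their most alike exons, 255 bases of coding sequence, are shown with the 5 differing bases in capitals (98.04% identity, GENCODE vM21 annotation on GRCm38, minus strand, chr1:170966446-170966700 for Fcgr2b and chr1:171053939-171054193 for Fcgr3).
Fcgr2b: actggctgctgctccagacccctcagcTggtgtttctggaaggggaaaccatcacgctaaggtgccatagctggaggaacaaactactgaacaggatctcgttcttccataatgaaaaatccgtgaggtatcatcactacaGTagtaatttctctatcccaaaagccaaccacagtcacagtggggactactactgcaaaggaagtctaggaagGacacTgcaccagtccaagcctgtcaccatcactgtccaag
Fcgr3: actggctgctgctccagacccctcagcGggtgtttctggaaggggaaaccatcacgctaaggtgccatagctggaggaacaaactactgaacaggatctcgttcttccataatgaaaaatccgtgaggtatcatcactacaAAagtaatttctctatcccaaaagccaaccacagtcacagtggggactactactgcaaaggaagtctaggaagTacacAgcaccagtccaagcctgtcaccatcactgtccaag
Counted from 1 at the 5′ end of the exon, the differences from Fcgr2b to Fcgr3 are T28G, G142A, T143A, G215T and T220A.

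LPS moved the inhibitory and the activating receptor of this pair in opposite directions. Fcgr2b was at 597 to 789 TPM without stimulus (median 713), at 1762 to 2250 with LPS (median 1989) and at 704 to 1119 with CpG (median 894). TPM is a transcript's share of its library per unit of length, so levels of different genes can be compared. All 7 LPS libraries were above all 7 unstimulated ones. Fcgr2b rose with LPS by 1.51 ± 0.07 on the log2(TPM + 1) scale (SE, 7 matched sets of the same genotype and protein), a 2.84-fold difference (limma, adjusted p = 3.91e-12), and the ratio within a set was 2.63 to 3.06. With CpG it rose by 0.32 ± 0.07, or 1.25-fold (limma, adjusted p = 0.0018), and was higher in 6 of 7 sets, the exception being the biglycan set labelled Bgn-/- at a ratio of 0.988.

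Fcgr3 was at 580 to 883 TPM without stimulus (median 695), at 114 to 219 with LPS (median 138) and at 336 to 495 with CpG (median 415). The 3 groups did not overlap. Fcgr3 fell by 2.30 ± 0.10 on the log2 scale with LPS, 4.94-fold (limma, adjusted p = 2.75e-12), and by 0.78 ± 0.10 with CpG, 1.72-fold (adjusted p = 3.04e-05). It was lower in 7 of 7 sets with either stimulus, 4.03- to 7.48-fold with LPS and 1.40- to 2.13-fold with CpG. LPS was also below CpG in 7 of 7 sets, by 1.52 ± 0.10 (limma, adjusted p = 5.74e-10), while Fcgr2b was above CpG by 1.18 ± 0.07 (adjusted p = 1.09e-10). The 8 markers of large peritoneal macrophages, the main resident type of this cavity, summed to 1057 to 2395 TPM without stimulus, 468 to 595 with LPS and 871 to 1479 with CpG. All 8 were called lower with LPS and 5 with CpG, against 74.2% and 24% of all genes. After the scaling described below, 6 and 4 were called lower, against 39.7% and 19.6% of all genes. The part of these markers in the Fcgr3 values was not tested. In these bulk samples, fewer cells of a type and less RNA per cell cannot be told apart.

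Over all 6 genes, 1 rose and 2 fell with LPS, where 87.9% of 11156 genes tested passed the same test, 13.7% as higher and 74.2% as lower. The median gene was 0.75 lower on the log2 scale with LPS and 0.06 lower with CpG, so LPS values were also read after scaling each library by the median of its ratios to the mean library, which brought the LPS median to 0.01. After scaling, Fcgr2b was higher with LPS by 2.36 ± 0.09 (limma, adjusted p = 5.87e-13) and Fcgr3 lower by 1.45 ± 0.12 (adjusted p = 5.94e-09). Under the pseudocounts, filters, scalings and left-out libraries tried, both kept their direction and their call for LPS, for CpG and for LPS against CpG. With CpG, 1 of the 6 genes rose and 2 fell, against 39.5% of all genes called, 15.6% higher and 24% lower. For LPS against CpG the count was again 1 higher and 2 lower, against 87.6% of all genes, 11.3% higher and 76.3% lower.

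**Figure D1:**
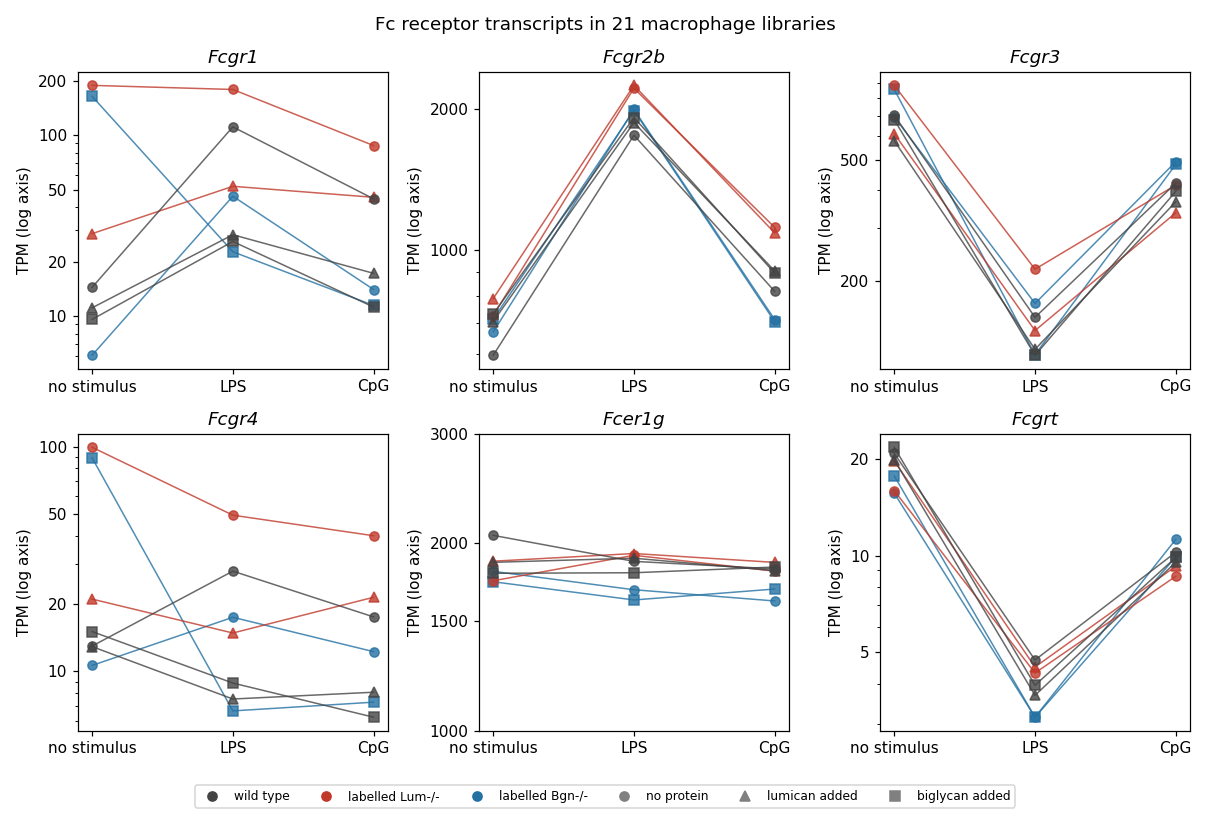
TPM of each Fc receptor gene (log axis) by stimulus in the 21 libraries, 1 point per library, with lines joining the 7 matched sets, colour for the genotype label and shape for the added protein. Fcgr2b rises to at least 1762 TPM with LPS and Fcgr3 and Fcgrt fall in every set, while Fcgr1 and Fcgr4 start high in the 2 libraries that are alike.

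The ratio of Fcgr3 to Fcgr2b within a library does not depend on scaling. It was 0.776 to 1.22 without stimulus, 0.0576 to 0.0987 with LPS and 0.308 to 0.696 with CpG. The 3 ranges did not overlap, and the ratio was lower with LPS in 7 of 7 sets, 12.3- to 20.8-fold. Adding Fcgr1 and Fcgr4 to the activating side gave a ratio of activating to inhibitory receptor transcripts of 0.839 to 1.61 without stimulus, 0.0723 to 0.202 with LPS and 0.370 to 0.732 with CpG. Without the 2 alike libraries, the unstimulated range was 0.839 to 1.22.

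The deposited names assign Fcgr2b to 7 transcripts, of which ENSMUST00000081103.11 (71.0% of its TPM over all libraries) and ENSMUST00000027966.13 (11.3%) hold at least 10%. The second has a further coding exon of 141 bases, a multiple of 3, shown here because its share moved with LPS (GRCm38, chr1:170963325-170963465, minus strand).
Fcgr2b exon: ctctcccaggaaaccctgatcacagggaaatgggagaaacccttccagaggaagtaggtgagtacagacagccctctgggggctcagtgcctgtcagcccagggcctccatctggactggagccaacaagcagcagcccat
As background, the receptor form with an additional stretch in its cytoplasmic tail predominates in B cells and is held at the cell surface, and the shorter form predominates in myeloid cells and is taken up with its ligand. Of the 2 transcripts together, the one with the exon made up 18.8 to 21.7% without stimulus, 9.01 to 9.57% with LPS and 17.8 to 19.3% with CpG. The LPS range lay below both others in all 7 sets. The transcript without the exon was at 421 to 533 TPM without stimulus and 1286 to 1632 with LPS, while the one with it was at 102 to 129 and 136 to 166. The rise in Fcgr2b was thus mostly in the transcript without the exon. The 2 models also differ in length (1462 and 3544 bases), so the split rests on more than the exon. The B cell markers summed to 421 to 919 TPM without stimulus, 398 to 586 with LPS and 514 to 787 with CpG, and the part of B cells in this share was not tested.

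**Figure D2:**
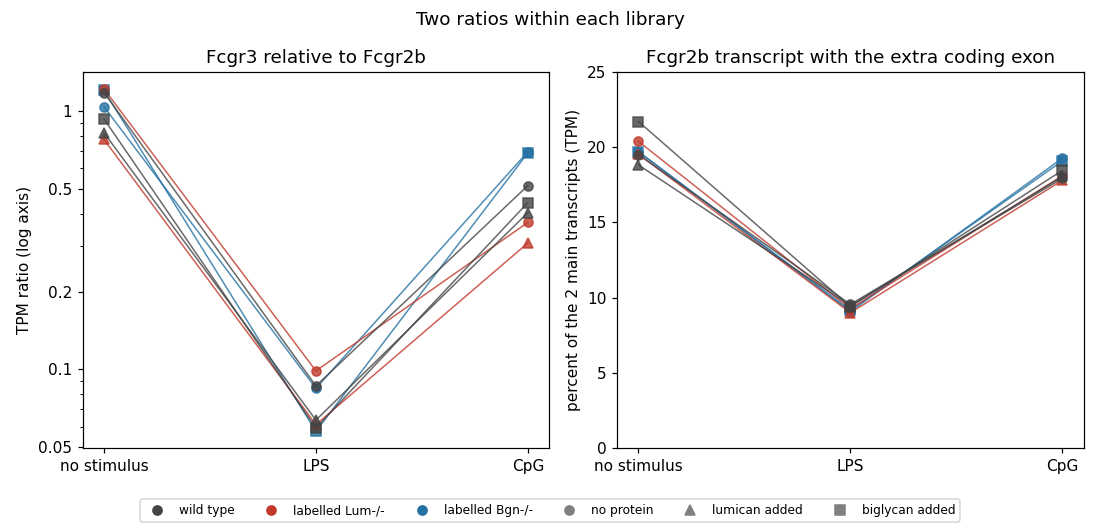
Left, Fcgr3 TPM divided by Fcgr2b TPM in each library (log axis). Right, percent of the TPM of the 2 main Fcgr2b transcripts that belongs to the one with the additional coding exon. Lines join matched sets. LPS libraries lie at 0.0576 to 0.0987 on the left and 9.01 to 9.57% on the right, below both other groups.

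Fcer1g, the signalling partner of the activating receptors, hardly varied. It was at 1735 to 2060 TPM without stimulus (median 1803), 1622 to 1926 with LPS (median 1871) and 1616 to 1864 with CpG (median 1808), and the groups overlapped throughout. Its level with LPS differed by -0.02 ± 0.04 on the log2 scale (95% interval -0.11 to 0.08, limma, adjusted p = 0.693), and with CpG by -0.05 ± 0.04 (interval -0.14 to 0.05, adjusted p = 0.404). Relative to the other genes of the same libraries it stood higher with LPS, by 0.83 ± 0.06 after median-of-ratios scaling (limma, adjusted p = 8.68e-10), but lower by quantile normalization, at -0.31 (adjusted p = 1.73e-05), so its direction with LPS depends on the scaling. Fcer1g TPM was 1.49 to 3.09 times the summed TPM of Fcgr1, Fcgr3 and Fcgr4 without stimulus and 4.28 to 12.2 times with LPS.

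Fcgrt was the least abundant of the 6 genes in most libraries. It was at 15.6 to 21.7 TPM without stimulus (median 19.7), 3.14 to 4.74 with LPS (median 3.95) and 8.63 to 11.2 with CpG (median 9.87), and the 3 groups did not overlap, with the large peritoneal macrophage markers given above also lowest with LPS. It fell by 2.01 ± 0.09 on the log2 scale with LPS (limma, adjusted p = 1.77e-12) and by 0.86 ± 0.09 with CpG (adjusted p = 2.25e-06). The TPM ratio within a set was 3.69- to 5.63-fold lower with LPS and 1.39- to 2.20-fold lower with CpG. Scaling left a difference of -1.27 ± 0.09 with LPS (limma, adjusted p = 2.62e-09). B2m, the light chain that pairs with it, was at a median of 10110 TPM without stimulus and 9455 with LPS, a difference of -0.06 ± 0.08 (limma, adjusted p = 0.474), or 0.79 after scaling (adjusted p = 6.9e-07).

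**Figure D3:**
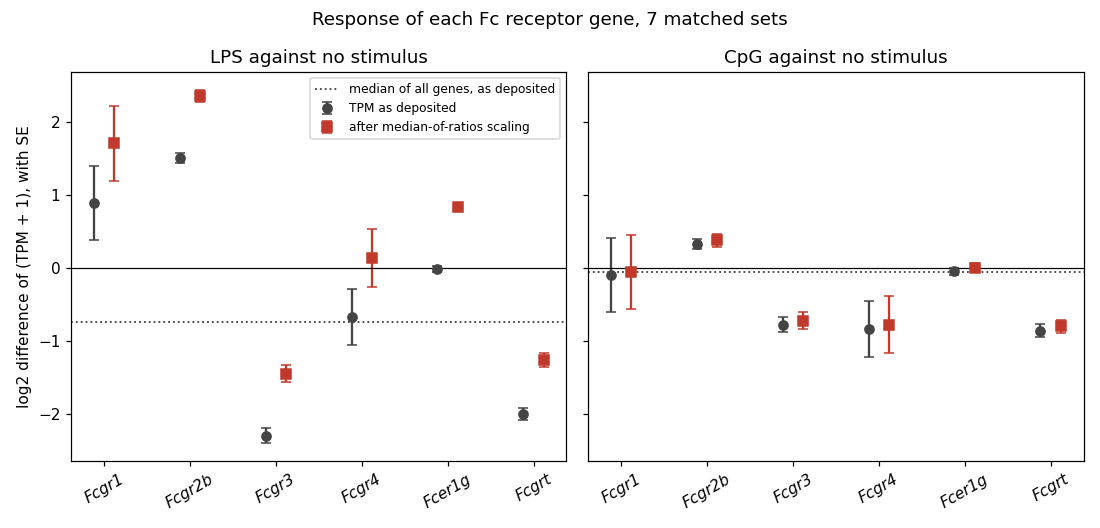
Log2 difference of (TPM + 1) for LPS and CpG against no stimulus over 7 matched sets, with standard errors, as deposited (circles) and after median-of-ratios scaling (squares). The dotted line is the median of all genes. Fcgr2b lies above it and Fcgr3 and Fcgrt below it for both stimuli, and Fcer1g lies at -0.02 as deposited and 0.83 scaled with LPS.

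The activating receptors Fcgr1 and Fcgr4 varied most among libraries of the same stimulus. Without stimulus, Fcgr1 was at 188 TPM in untreated cells of the label Lum-/- and 164 in the Bgn-/- cells given biglycan alone, against 6.07 to 28.6 in the other 5. Fcgr4 was at 99.3 and 89.1 TPM in the same 2 libraries, against 10.6 to 20.98 in the other 5. Both genes were thus high in the 2 libraries that are alike, and no other unstimulated library overlapped with them.

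Fcgr1 was at 22.7 to 179 TPM with LPS (median 46.0) and 11.2 to 87.6 with CpG (median 17.2). It was higher with LPS in 5 of 7 sets, with a difference of 0.88 ± 0.51 that did not pass the test (95% interval -0.19 to 1.96, limma, adjusted p = 0.112). Without the 2 alike libraries it was higher in 5 of 5 sets, by 1.81 ± 0.23 (limma, adjusted p = 1.96e-06), and without the untreated wild-type library as well by 1.58 ± 0.21 (adjusted p = 5.24e-06). Scaling of all 21 libraries gave 1.71 ± 0.51 (limma, adjusted p = 0.00625). With CpG the difference was -0.10 ± 0.51 (limma, adjusted p = 0.89), and 0.82 ± 0.23 without the 2 libraries (adjusted p = 0.011), so its direction turned. Fcgr1 was higher with LPS than with CpG in 7 of 7 sets, 1.15- to 3.28-fold, at 0.99 ± 0.51 (limma, adjusted p = 0.0783), and this passed the test without the 2 libraries (0.99 ± 0.20, adjusted p = 0.000244).

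Fcgr4 was at 6.68 to 49.5 TPM with LPS (median 14.8) and 6.26 to 40.1 with CpG (median 12.3). Its differences were -0.67 ± 0.39 with LPS (95% interval -1.49 to 0.15, limma, adjusted p = 0.112) and -0.84 ± 0.39 with CpG (interval -1.66 to -0.02, adjusted p = 0.096). Without the 2 libraries they were -0.05 ± 0.22 (limma, adjusted p = 0.844) and -0.21 ± 0.22 (adjusted p = 0.471). Scaling turned the sign of the LPS difference to 0.13 ± 0.40 (limma, adjusted p = 0.766). The ratio of Fcgr1 to Fcgr4 was 0.571 to 1.90 without stimulus and 2.64 to 3.98 with LPS, with no overlap.

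The bases before the start site of Fcgr4, whose level differed most between libraries within the receptor cluster on chromosome 1, are shown (RefSeq, GRCm38.p6, 5′ to 3′ on the plus strand, chr1:171018676-171018919). Capitals mark matches, on either strand, to the core GAAANNGAA of the interferon-stimulated response element and to the PU.1 site GAGGAA.
Fcgr4: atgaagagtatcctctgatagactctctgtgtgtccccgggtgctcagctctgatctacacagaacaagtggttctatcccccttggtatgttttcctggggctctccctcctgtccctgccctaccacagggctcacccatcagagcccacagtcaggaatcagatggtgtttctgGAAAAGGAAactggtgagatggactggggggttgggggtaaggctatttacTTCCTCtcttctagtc
Counted from 1 at the 5′ end of the bases shown, the interferon core matched at 178 to 186 and the PU.1 letters, on the opposite strand, at 229 to 234. Among 32851 promoter windows from 250 bases before to 50 after a start, 8.56% held the interferon core and 28.28% the PU.1 letters. A match is a description of letters only.

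Added protein was compared at the same genotype and stimulus. In the LPS and CpG libraries, Fcgr1 and Fcgr4 were lower with either protein in 8 of 8 matched pairs. With LPS, Fcgr1 was at 111 TPM in wild type, 28.2 with lumican and 25.9 with biglycan. It was at 179 and 52.2 with lumican in cells labelled Lum-/-, and at 46.0 and 22.7 with biglycan in cells labelled Bgn-/-. With CpG, the wild-type values were 44.4, 17.2 with lumican and 11.2 with biglycan. In the CpG cells labelled Lum-/-, Fcgr1 was at 87.6 TPM and at 45.3 with lumican, and in those labelled Bgn-/- at 14.02 and at 11.5 with biglycan. Both wild-type pairs of a stimulus share their library without protein, so the 8 pairs are not independent. Without stimulus, Fcgr1 was 27.0-fold higher with biglycan in the Bgn-/- pair, whose biglycan library is 1 of the 2 that are alike.

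Fcgr4 was also highest without protein in the LPS and CpG libraries of each genotype. In the unstimulated libraries it was instead higher with biglycan, in wild type and in the Bgn-/- pair. The ratio in that Bgn-/- pair was 8.38, and its biglycan library is 1 of the 2 that are alike. With lumican, Fcgr4 was lower in 6 of 6 pairs, unstimulated ones included. With LPS it was at 27.9 TPM in wild type, 7.54 with lumican and 8.88 with biglycan, and with CpG at 17.5, 8.09 and 6.26. Over the 8 stimulated pairs the ratio with protein to without was 0.233 to 0.817 for Fcgr1 (median 0.340) and 0.270 to 0.596 for Fcgr4 (median 0.371). Fcgr3 was also lower in 8 of 8 pairs, at 0.628 to 0.980 (median 0.797). Fcgr2b was at 0.973 to 1.11 and Fcer1g at 0.959 to 1.05, on both sides of 1.

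None of these differences passed the test over all genes. Averaged over the 3 stimuli, lumican gave -1.13 ± 0.59 for Fcgr1 (limma, adjusted p = 0.505), -1.07 ± 0.36 for Fcgr4 (adjusted p = 0.346) and -0.37 ± 0.08 for Fcgr3 (adjusted p = 0.207). Biglycan gave -0.37 ± 0.59 for Fcgr1 (limma, adjusted p = 0.872) and -0.41 ± 0.36 for Fcgr4 (adjusted p = 0.739). For both proteins 0 of the 6 genes and 0% of all genes were called by limma, with 1190 genes at an unadjusted p under 0.05 for lumican and 1020 for biglycan. In the LPS and CpG libraries alone, a comparison chosen after seeing the data, lumican gave -1.24 ± 0.71 for Fcgr1 and -1.22 ± 0.44 for Fcgr4, and biglycan -1.18 ± 0.71 and -1.15 ± 0.44. None of these was called, and neither was any other gene (0% of those tested, with 1105 and 1235 at an unadjusted p under 0.05 for lumican and biglycan). Without the 2 alike libraries, Fcgr4 with lumican was at -0.92 ± 0.11 (limma, adjusted p = 0.0312) and was the 1 gene called of all 11156, while with biglycan it was at -0.77 ± 0.11 (adjusted p = 0.0998). That call was lost without the untreated wild-type library as well, at -0.94 ± 0.13 (limma, adjusted p = 0.219, 0 genes called). Without the 2 libraries, Fcgr1 was at -0.94 ± 0.19 with lumican (limma, adjusted p = 0.1) and -0.99 ± 0.19 with biglycan (adjusted p = 0.0998).

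**Figure D4:**
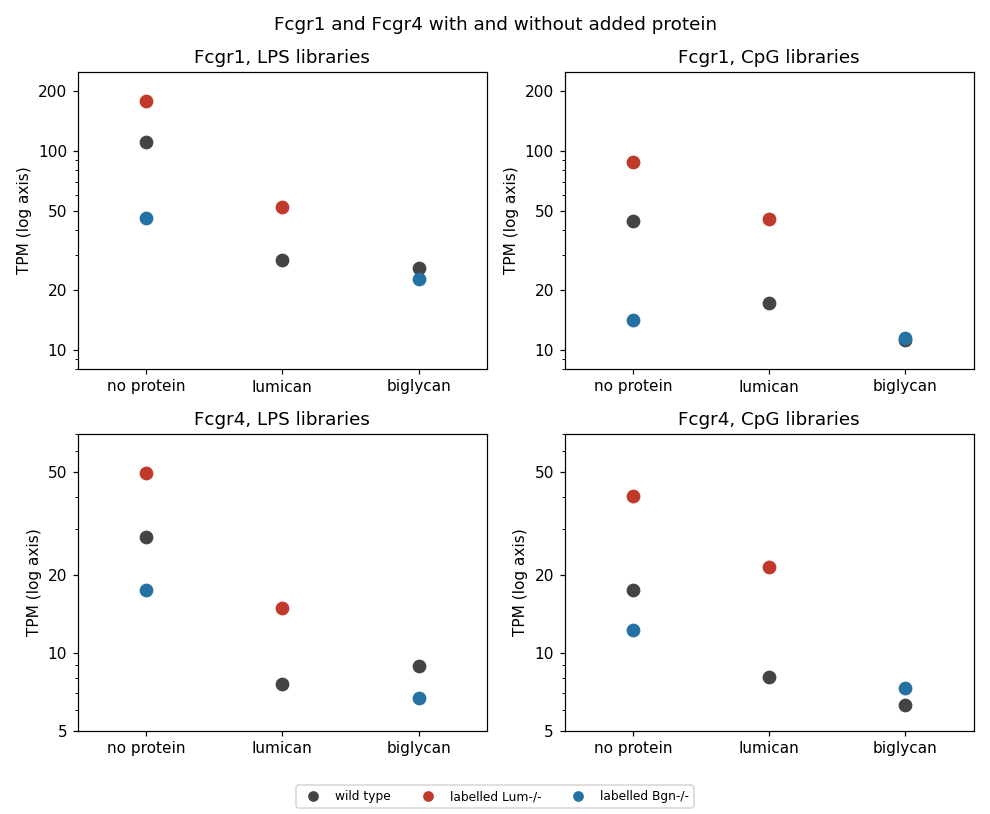
TPM of Fcgr1 and Fcgr4 (log axis) in the LPS and CpG libraries by added protein, 1 point per library, coloured by genotype label. In each of the 3 genotypes the point without protein is the highest, such as Fcgr1 at 111 TPM in wild type with LPS against 28.2 and 25.9 with protein.

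Libraries labelled Lum-/- had more Fcgr1, Fcgr4 and Fcgr2b than wild type at every matched treatment. Over 6 pairs the ratio to wild type was 1.61 to 13.1 for Fcgr1 (median 2.27), 1.63 to 7.65 for Fcgr4 (median 2.13) and 1.12 to 1.37 for Fcgr2b (median 1.21), with the highest Fcgr1 and Fcgr4 ratios in the untreated pair. Of the 6 genes, 2 were called higher and 0 lower, against 5.73% of all genes (1.77% higher and 3.96% lower). Fcgr4 was higher by 1.46 ± 0.36 (limma, adjusted p = 0.0326) and Fcgr2b by 0.28 ± 0.07 (adjusted p = 0.038), while Fcgr1 was at 1.83 ± 0.59 (adjusted p = 0.0873). Without the 2 alike libraries the differences were 1.02 ± 0.11 for Fcgr4 (limma, adjusted p = 0.000297), 0.30 ± 0.08 for Fcgr2b (adjusted p = 0.0289) and 1.15 ± 0.19 for Fcgr1 (adjusted p = 0.00374). Among all 11156 genes, 639 were called for this label in the full set. Without the 2 alike libraries and the untreated wild-type library, 1469 were called. In the stimulated libraries alone Fcgr4, Fcgr2b and Fcgr1 were at 1.10 ± 0.12, 0.32 ± 0.08 and 1.13 ± 0.23. The labels give an RNA purity ratio (A260/230) of 0.13 for the Lum-/- library with CpG and no protein and 0.2 for the one with LPS and lumican, against 1.21 to 4.91 in the other 19 libraries. The ratios to wild type in those 2 pairs were 1.97 and 1.85 for Fcgr1, 2.30 and 1.97 for Fcgr4 and 1.37 and 1.201 for Fcgr2b, and all 3 genes were also above wild type in each of the other 4 pairs.

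The 2 calls in the full set were not stable to single libraries. Leaving out each of the 21 libraries in turn kept the call of Fcgr4 in 13 fits (1.12 to 1.61) and of Fcgr2b in 8 (0.22 to 0.30). Mast cell transcripts differed with the genotype label. The 10 mast cell markers were all detected, with Mrgprb1 at 0 in untreated wild type, and summed to 107 to 220 TPM in 8 of the 9 wild-type libraries and to 5.82 in the untreated one. Without Hdc, which was at 116 to 166 TPM in every LPS library and at most 10.2 elsewhere, the other 9 summed to 80.6 to 140 TPM in those 8 libraries, to 8.23 to 11.6 in the libraries labelled Lum-/- and to 3.13 to 9.55 in those labelled Bgn-/-. Their part in the genotype comparison was not tested.

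Between the label Bgn-/- and wild type, 0 of the 6 genes were called by limma, against 0.206% of all genes, with 843 genes at an unadjusted p under 0.05. The differences were -0.19 ± 0.59 for Fcgr1 (95% interval -1.46 to 1.07), 0.03 ± 0.36 for Fcgr4 (interval -0.75 to 0.81) and -0.04 ± 0.07 for Fcgr2b (interval -0.19 to 0.11). Without the 2 alike libraries, Fcgr1 was at -0.82 ± 0.19 (limma, adjusted p = 0.0687) and Fcgr4 turned to -0.33 ± 0.11 (adjusted p = 0.227). Fcgr1 was lower in 4 of 6 pairs, and its ratio of 17.1 in the biglycan-alone pair rests on a library that stands apart. Fcer1g was lower in 6 of 6 pairs, at ratios of 0.875 to 0.969 (-0.13 ± 0.05, limma, adjusted p = 0.504). The LPS and CpG responses were not called different from wild type in cells labelled Lum-/- or Bgn-/- for any of the 6 genes (limma, 0% of all genes in each of the 4 comparisons, with 644 to 1204 at an unadjusted p under 0.05). The standard error of such a difference was 1.22 for Fcgr1 and 0.98 for Fcgr4 but 0.11 for Fcgr2b. Leaving out the untreated library labelled Bgn-/- leaves the biglycan-alone library as the only unstimulated one of that label. That fit gave lower responses of Fcgr1 (-4.45 for LPS and -4.69 for CpG) and Fcgr4 (-3.29 and -3.14). The fit without the 2 alike libraries also leaves 1 unstimulated library of that label, the untreated one. There the same responses had the opposite sign, at 0.73 for LPS and 0.48 for CpG for Fcgr1 and 0.63 and 0.79 for Fcgr4. Without the untreated wild-type library as well they were at 1.18 and 0.93 for Fcgr1 and 1.14 and 1.29 for Fcgr4. These responses thus rest on which single unstimulated library is kept.

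**Figure D5:**
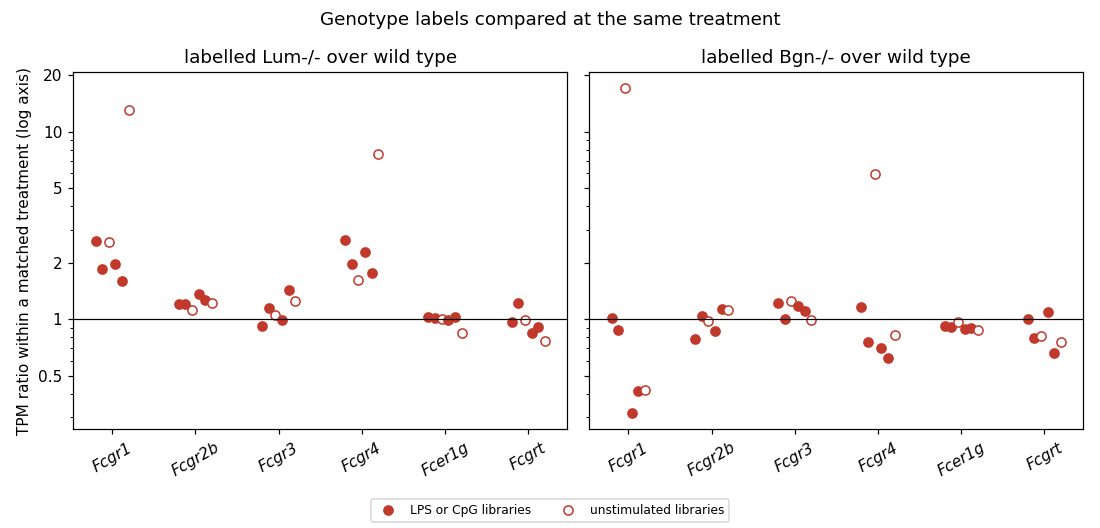
TPM in libraries labelled Lum-/- (left) or Bgn-/- (right) divided by wild type at the same treatment (log axis), 6 pairs per gene, filled for LPS or CpG and open for no stimulus. Fcgr1, Fcgr4 and Fcgr2b lie above 1 in all 6 Lum-/- pairs, and the highest points (13.1 and 17.1) belong to the 2 alike libraries.

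Other genes of the pathway were read from lists of pathway genes. The LPS and CpG comparisons share their unstimulated libraries. Among the activating signalling genes, 5 of 19 rose and 12 fell with LPS (median -0.77, against -0.75 for all genes, of which 13.7% rose and 74.2% fell). After scaling 9 rose and 7 fell, against 39.8% and 39.7% of all genes. The kinase Syk was at 0.28 ± 0.07 and the Src-family kinase Lyn at 0.79 ± 0.08, both called by limma as higher (adjusted p = 0.00122 and 4.8e-08). Fgr, of the same family, fell by 3.12 ± 0.11, from a median of 112 to 12.5 TPM (limma, adjusted p = 1.99e-13). The adaptors Card9 and Lat2 were at -2.51 ± 0.12 and -1.83 ± 0.09 (limma, both lower, adjusted p = 7.66e-12 and 1.07e-11). With CpG, 6 of these 19 genes rose and 5 fell (median -0.02, against -0.06 for all genes, of which 15.6% rose and 24% fell).

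All 11 inhibitory signalling genes fell with LPS (median -1.11), where 74.2% of all genes fell (median -0.75). After scaling 3 rose and 8 fell, against 39.8% and 39.7% of all genes. Inpp5d, which encodes the SHIP1 phosphatase that acts with the inhibitory receptor, fell by 1.92 ± 0.08, from a median of 75.4 to 18.9 TPM (limma, adjusted p = 9.77e-13), and was at -1.09 after scaling (adjusted p = 1.3e-09). Ptpn6, which encodes SHP-1, fell by 1.11 ± 0.07 (limma, adjusted p = 2.17e-10). Fcgr2b and Inpp5d thus moved in opposite directions. With CpG, 0 of the 11 rose and 4 fell, against 15.6% and 24% of all genes, and Inpp5d was at -0.12 ± 0.08 (limma, adjusted p = 0.224).

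Of 11 phagocytic and oxidase genes, 0 rose and 9 fell with LPS (median -0.69), near the 74.2% of all genes that fell (median -0.75), and 6 rose and 3 fell after scaling, against 39.8% and 39.7%. Cybb, the catalytic oxidase subunit, was at -0.01 ± 0.07 (limma, adjusted p = 0.834), and the subunit Ncf1 fell by 1.12 ± 0.07 (adjusted p = 1.29e-10). Of 10 tested genes for other antibody-binding receptors and partner chains, 3 rose and 6 fell with LPS (median -0.74), against 13.7% and 74.2% of all genes, and 4 rose and 2 fell after scaling, against 39.8% and 39.7%. The receptor-like gene Fcrlb rose from a median of 2.87 to 30.9 TPM, by 2.86 ± 0.14 (limma, adjusted p = 5.58e-12), and Trim21, a cytosolic receptor for antibody, from 20.1 to 62.0, by 1.66 ± 0.11 (adjusted p = 2.99e-10). Tyrobp, an adaptor of the same type as Fcer1g, fell by 1.66 ± 0.08, from 2127 to 695 TPM (limma, adjusted p = 8.19e-12). With CpG, 3 of the 10 rose and 4 fell, against 15.6% and 24% of all genes.

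Of 4 listed IgG heavy chains, whose products are the ligands of these receptors, 3 averaged 1 TPM or more and were tested. Ighg2b and Ighg3 were called higher with CpG, where 15.6% of all genes were. With LPS 0 of the 3 rose in the deposited values, against 13.7% of all genes. Ighg2b was at 0.770 to 2.44 TPM without stimulus, 1.37 to 3.68 with LPS and 15.95 to 28.0 with CpG, a rise of 3.02 ± 0.16 on the log2 scale (limma, adjusted p = 4.09e-09). Ighg3 rose by 1.11 ± 0.21 (limma, adjusted p = 0.000616). Ighg2c was at 0 to 0.613 TPM without stimulus, 0.069 to 0.609 with LPS and 6.27 to 10.7 with CpG. It passed the filter on low values only through its CpG libraries, so its difference of 2.96 ± 0.13 is given without a test. After scaling, 2 of the 3 were called higher with LPS, against 39.8% of all genes. The part of the B cell transcripts given above in this rise was not tested.

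The genes most alike in pattern were found among 6986 genes averaging 10 TPM or more, as the smallest root mean square difference over the 21 libraries of log2 values centred on each gene's mean. For Fcgr2b they were Map2k1, Slfn2 and Aff1 (0.131 to 0.143, against a spread of 0.669 of Fcgr2b about its own mean). For Fcgr3 they were Ckb, Tep1 and Timp2 (0.173 to 0.203, against 0.988), and for Fcgrt Gm2a, Prcp and Arl5c (0.147 to 0.211, against 0.835). Fcgr1 was nearest to Fcgr4 (0.763, against 1.40), then to Ly6a and Siglec1. For Fcer1g, the nearest were Uap1, Crlf2 and D17Wsu92e (0.0727 to 0.0875), no closer than its own spread of 0.0821 for 2 of the 3.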

How the data were processed

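RNA sequencing of CD11b+ peritoneal macrophages gave 21 libraries, which per the labels came from a stranded TruSeq kit. The tools bcl2fastq 1.8.4 and kallisto 0.44.0 and the build GRCm38 are named in the submitters' processing notes. The authors deposited 1 table, in TPM for each transcript and library. Its further column, treated as a score, is the sum of these TPM over libraries as deposited by the authors, and was not tested. TPM keeps no depth, so no counting error can be given. TPM was summed by deposited gene name over 82788 of 89562 transcripts. A further 6774 have no gene name, and none of them matched these 6 genes by transcript ID.

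The 11156 genes averaging 1 TPM or more were tested on log2(TPM + 1) with limma 3.58.1 in R 4.3.3 (lmFit, eBayes with a trend, two-sided, Benjamini-Hochberg adjusted p under 0.05 over all genes tested). Stimulus comparisons took the 7 genotype-by-protein sets as a block (12 residual degrees of freedom). Genotype and protein comparisons came from an additive fit of genotype and 9 treatments (10), and differences in response from a fit with genotype-by-stimulus terms (8). The fits were also run on simulated data, in which each gene had the same mean in all libraries, apart from chosen changes, with independent noise. Those data held no differences between sets, no libraries that stand apart and no shift of most genes. They therefore do not bear on how such features move the calls. A fold change understates low genes on this scale. Ratios within matched libraries carry no test.

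Transcripts with at least 10% of a gene's TPM are named. From each pathway list the first 4 measured genes and the 3 with the greatest absolute LPS difference could be named, and for each receptor gene the 3 most alike in pattern. Some items under these rules are not reported here. The genes, lists and tests were chosen with earlier results of these data known. Libraries were compared over genes averaging 100 TPM or more. Alternatives tried were quantile normalization, median-of-ratios scaling, a stricter filter (5 TPM) or none, pseudocounts of 0.1 and 5, each gene's most abundant transcript, unnamed transcripts added by ID, robust eBayes, no block, libraries without protein, only the libraries compared, and libraries left out. Sums and figures were made in Python 3.11.15 (matplotlib 3.10.9, numpy 2.4.6, pandas 2.3.3).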

Additional observations from a re-analysis of the deposited data

How the results depend on the processing

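Of 2292 repeated values for the 6 genes under all alternatives, 2228 kept their direction and their side of the threshold or were uncalled on both sides, 34 gained a call, 24 lost one and 6 changed sign with a call. The changes of sign were Fcer1g for LPS after median-of-ratios scaling (0.83, and 0.81 also without 3 libraries), Fcer1g for LPS against CpG by quantile normalization (-0.33), and Fcgr1 for CpG without 2 libraries (0.82), without 3 (0.60) and scaled without 3 (0.61). The count of genes called higher with LPS was 1 in the values reported and 3 after scaling, 2 by quantile normalization, 2 without 2 or 3 libraries and 3 scaled without 3. For CpG it was 2 in each of the 3 settings without these libraries. For LPS against CpG it was 4 after scaling with or without 3 libraries, and 2 by quantile normalization, without 2 or 3 libraries and with only the libraries of the 2 stimuli. Calls among all genes moved too. Over the alternatives other than single left-out libraries they numbered 7854 to 11338 with LPS, 2311 to 4675 with CpG and 7822 to 11143 for LPS against CpG. The filters change how many genes are tested, 11156 in the values reported. Scaling took the genes called higher from 1531 to 4437 with LPS and from 1263 to 4179 for LPS against CpG. The count called higher for the label Lum-/- was 0 with no filter and 1 with the most abundant transcript per gene, against 2. With no filter 458 of all genes were called for this label in either direction, against 639 in the values reported. The count called lower with lumican was 1 without 2 libraries, where it was the 1 gene called of all 11156, against 0. The scaled fit without 3 libraries and the protein comparisons within single stimuli were added after the data were seen. The cause of these changes was not tested.

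Leaving out each of the 21 libraries in turn gave 1 to 2 genes higher and 2 to 3 lower with LPS, 1 and 2 to 3 with CpG, and 1 to 2 and 2 for LPS against CpG. All genes called in those fits numbered 9689 to 9810, 3841 to 4536 and 9642 to 9852. Leaving out 1 library gave 0 to 3 higher for the label Lum-/-, and 0 for the label Bgn-/- and for both proteins. All genes called were 0 to 37 for lumican and 0 to 8 for biglycan. For the LPS and CpG responses, leaving out a library labelled Lum-/- or Bgn-/- leaves 1 library of that label with the same stimulus setting. Calls from those fits are therefore not counted for either label. The effect sizes without the untreated Bgn-/- library are given above. The fits that left out a wild-type library gave 0 for the responses of both labels. All genes called for the label Lum-/- numbered 639 in the full set, 245 to 868 with 1 library left out and 1469 without 3 libraries, and for the label Bgn-/- 23, 13 to 65 and 213. For CpG they numbered 4410 in the full set and 2311 in libraries without added protein. The labels give no replicate numbers, so libraries were matched only by genotype, protein and stimulus. TPM carries no depth, so the precision of low values such as Fcgrt with LPS is not known.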
